A study of Mus musculus with 5 samples.

Results

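The sarcomere and excitation-contraction genes of forelimb muscle were compared between Noggin-deficient and wild type mouse embryos. They are the genes of the contractile filaments, of the Z-discs and M-bands that hold the filaments in register, and of the membrane system that turns an electrical signal into calcium release. Members were set by a fixed pattern of family names in the gene symbols, which left out Myh3 and Actn3. Earlier results of these data were known when they were chosen. The pattern matched 73 of the 4743 listed genes. Of 131 annotated protein-coding symbols that fit the pattern, 71 had values. The remaining 2 members were the entries Myh8_copy2 and Myh8_copy3, whose suffix is not explained in the sources used here. The other annotated symbols were not analysed here. The listed genes are nearly all genes that differ between the groups, so how those symbols changed, if at all, is not known here.

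RNA came from muscle of fore limbs at E15.5, from 3 Noggin-deficient and 2 wild type samples, all labelled C57BL/6. The secreted antagonist Noggin holds bone morphogenetic proteins away from their receptors. The labels do not give the Noggin allele, and do not say whether a sample was an embryo, a pool or a litter, so p-values reflect the scatter of these samples alone, and that scatter could be technical. Each library has 1 deposited value per gene. The authors normalized these values, the unit is not named, and the depth in reads is unknown.

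In a sarcomere, thick filaments of myosin pull on thin filaments of actin, and tropomyosin and the troponin complex make that pull depend on calcium. Titin spans from Z-disc to M-band and nebulin runs along the thin filament. Depolarisation of the T-tubule is sensed by a voltage-gated calcium channel coupled to the ryanodine receptor of the sarcoplasmic reticulum. The store then releases calcium held by calsequestrin, and the SERCA pumps return it. Embryonic skeletal muscle builds these structures with a mixture of embryonic, perinatal, slow, fast and cardiac isoforms.

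Nog, the gene of Noggin, was listed at 0.49, 0.42 and 0.42 in the Noggin-deficient libraries, against 2 and 1.99 in the wild type libraries. Nearly all genes in the tables differ between these same samples. Of 3913 genes tested with limma, 98.0% had a Benjamini-Hochberg adjusted p under 0.05, which is what "called" means here. The groups did not overlap for 98.2% of the 4743 listed genes, and only 12 of the tested genes changed by under 0.2 on the log2 scale. That a member was called, or that its groups did not overlap, is therefore close to what any listed gene shows, and says nothing particular about it. The direction and the size of its change are what the values add.

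The listed contractile genes were lower in the Noggin-deficient samples. By group means, without any filter, 65 of the 73 members were lower and 8 were higher, against 2762 lower and 1976 higher of all 4743 listed genes. All 60 members that belong to the striated sarcomere or to the triad of skeletal muscle were among the lower ones. The 8 higher members were all calcium channel subunits or junctophilins better known from neurons and other tissues. A minimum of 0.5, reached in 2 or more libraries, was met by 65 members, of which 62 fell and 3 rose. Over all tested genes 60.1% fell and 37.9% rose. Myoz3 and Mybpc3 passed that minimum through the wild type libraries alone. The median log2 change was -0.56 over the tested members and -0.28 over all tested genes, and the median tested member stood at 67.0% of its wild type mean. In normalized values of a tissue sample, fewer muscle cells, less RNA per cell and a larger share of RNA from other tissues cannot be told apart. The size of the fall also depends on the scaling, as given below.

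The size of the fall differed among members. Against a 1.5-fold change, which limma's treat tests, 13 of 65 members passed, all of them lower, where 10.3% of all tested genes passed as lower. These were Myoz3, Mylk2, Nebl, Pdlim5, Myoz1, Mybpc3, Neb, Mybpc1, Ttn, Ldb3, Cacng1, Myl3 and Sln. They come from the thick filament (5), the thin filament (2), the Z-disc (4) and the triad (2). Myoz3 and Mybpc3 were tested only because of their wild type values, and without them 11 of 63 members passed. This threshold was tested only on the values as deposited. Under median-of-ratios scaling, taken up below, each of the 13 changes was smaller, for Sln -0.58 against -0.85. The 4 striated groups had similar medians, from -0.59 for the thick filament to -0.54 for the triad and for the thin filament, so the range within each group was wider than the distance between them. The plot of every library shows this spread.

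**Figure D1:**
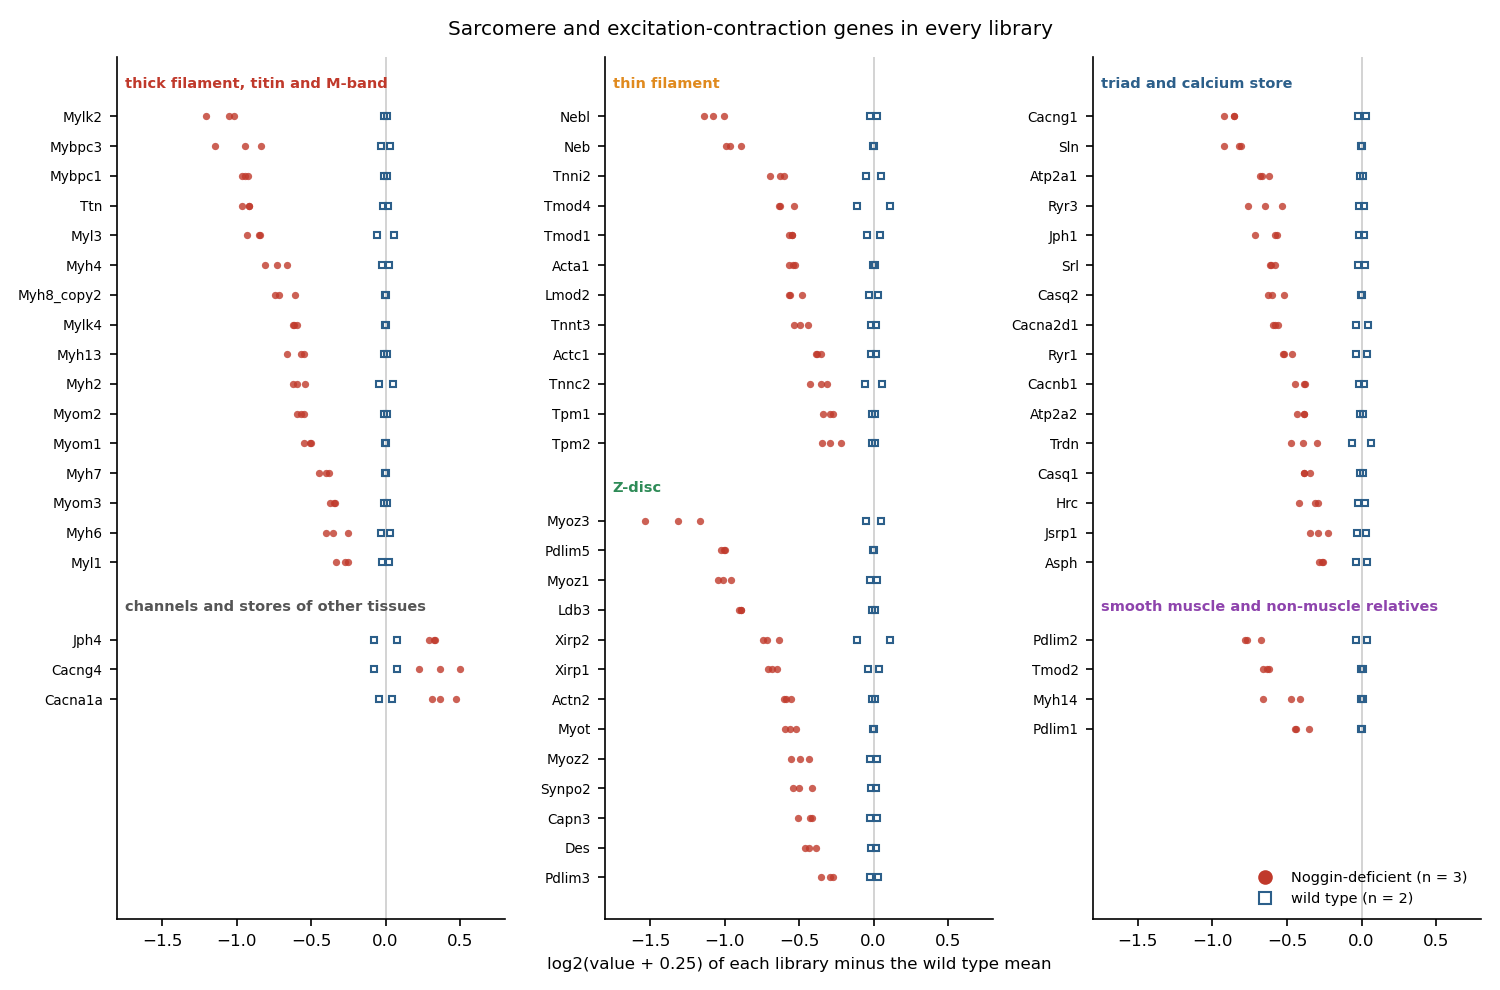
Tested members by role (64 drawn), with log2(value + 0.25) of every library minus the gene's wild type mean on the horizontal axis. Noggin-deficient libraries (filled circles, n = 3) lie to the left of wild type (open squares, n = 2) for 61 members, and to the right for Jph4, Cacng4 and Cacna1a.

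Promoter sequence is shown as a description of the members. The striated members are muscle genes by their family names, so muscle motifs can be common among them whatever their change. Muscle genes that did not fall were not compared. RefSeq windows of 300 bases, from 250 before to 50 after the transcript start, matched 40 of the striated members with 48 windows and 10 of the other members with 12. A MEF2 motif, the site of a family of muscle transcription factors, was found in 11 of the 48 windows (22.9%), against 3.19% of all 32851 windows in the table. A CArG box, the site of serum response factor, was found in 9 (18.8%), against 1.63%. Overlapping windows of the same gene, Ldb3, were counted separately among these, so windows are not independent. The E-box CAGCTG, which is bound by the myogenic factors of the MyoD family among others, was found in 16 (33.3%), against 16.3%, and the MCAT element CATTCC, a site of TEAD factors, in 12 (25%), against 14.7%. The looser E-box CANNTG was in 81.2% of the striated windows and in 72.3% of all windows, and includes every CAGCTG. The core promoter motif TATAAA, searched on the sense strand only, was in 5 of the 48 windows (10.4%), against 8.32% of all, and in none of the 12 windows of other members. Otherwise both strands were searched, and MEF2 and CArG matches used their usual degenerate consensus. The motifs were chosen after expression values had been seen. Of the 12 windows of the other members, 5 held CAGCTG, 1 held CATTCC and none held a MEF2 or CArG match. A match is only a run of letters and shows no binding. In the windows below, read 5′ to 3′ along the gene's strand, capitals mark MEF2, CArG, CAGCTG and CATTCC matches. The 6 windows were picked after their matches were known, to show each kind of motif, and are not typical. The window of Mybpc1, for instance, holds CAGCTG but neither a MEF2 nor a CArG match. Acta1 and Actc1 are the sarcomeric actins, Ttn and Casq2 hold a MEF2 match, Myh4 holds all 4 kinds, and Jph4 is a member that rose.
Acta1, GRCm38.p6, chr8:123894726-123895025, minus strand: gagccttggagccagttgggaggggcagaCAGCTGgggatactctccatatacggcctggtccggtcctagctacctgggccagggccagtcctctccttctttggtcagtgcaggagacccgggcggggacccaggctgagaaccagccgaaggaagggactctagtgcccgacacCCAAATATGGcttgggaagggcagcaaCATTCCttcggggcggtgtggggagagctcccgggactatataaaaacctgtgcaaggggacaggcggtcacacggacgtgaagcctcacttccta
Actc1, GRCm38.p6, chr2:114052826-114053125, minus strand: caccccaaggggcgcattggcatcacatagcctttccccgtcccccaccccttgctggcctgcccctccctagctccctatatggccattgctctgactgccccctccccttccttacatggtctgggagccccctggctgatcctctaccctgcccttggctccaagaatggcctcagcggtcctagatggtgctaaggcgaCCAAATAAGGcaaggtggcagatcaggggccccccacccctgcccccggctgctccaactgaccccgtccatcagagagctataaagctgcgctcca
Ttn, GRCm38.p6, chr2:76982498-76982797, minus strand: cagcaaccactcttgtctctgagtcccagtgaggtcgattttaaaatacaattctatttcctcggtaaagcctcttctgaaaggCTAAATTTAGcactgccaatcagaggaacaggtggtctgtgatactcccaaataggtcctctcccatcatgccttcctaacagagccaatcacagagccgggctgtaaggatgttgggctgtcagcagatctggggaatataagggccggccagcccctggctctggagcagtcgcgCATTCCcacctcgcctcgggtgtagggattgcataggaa
Casq2, GRCm38.p6, chr3:102086165-102086464, plus strand: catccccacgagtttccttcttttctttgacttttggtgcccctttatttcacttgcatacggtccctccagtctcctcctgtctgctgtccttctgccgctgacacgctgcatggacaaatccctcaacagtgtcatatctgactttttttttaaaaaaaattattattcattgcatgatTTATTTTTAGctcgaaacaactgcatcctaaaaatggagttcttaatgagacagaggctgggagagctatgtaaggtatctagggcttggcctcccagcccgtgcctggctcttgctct
Myh4, GRCm38.p6, chr11:67237562-67237861, plus strand: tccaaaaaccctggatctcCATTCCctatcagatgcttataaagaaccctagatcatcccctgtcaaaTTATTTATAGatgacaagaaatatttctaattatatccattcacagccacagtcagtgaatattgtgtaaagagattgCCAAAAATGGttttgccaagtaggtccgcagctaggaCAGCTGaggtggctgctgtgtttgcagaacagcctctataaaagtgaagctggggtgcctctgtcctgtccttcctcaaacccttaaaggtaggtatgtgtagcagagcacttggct
Jph4, GRCm38.p6, chr14:55116886-55117185, minus strand: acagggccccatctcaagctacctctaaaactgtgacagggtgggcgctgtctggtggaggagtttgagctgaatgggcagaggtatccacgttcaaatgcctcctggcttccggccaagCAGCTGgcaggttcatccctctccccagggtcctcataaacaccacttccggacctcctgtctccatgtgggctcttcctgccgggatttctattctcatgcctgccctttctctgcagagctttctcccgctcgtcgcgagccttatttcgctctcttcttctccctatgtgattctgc

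The thick filament group held 19 members, of which the 17 tested fell (median log2 change -0.59). Mylk2, the kinase that phosphorylates the myosin regulatory light chain in skeletal muscle, had normalized values of 3.41, 3.92 and 3.83 in the Noggin-deficient libraries, against 8.12 and 8.25 in the wild type libraries. Its log2 change was -1.09 (SE 0.064, adjusted p = 3.95e-06). The myosin-binding protein gene Mybpc1, whose product is the slow skeletal form, had 94.0, 95.7 and 93.0 in the Noggin-deficient libraries, against 180.5 and 182.4 in the wild type libraries. Its libraries stood within a few percent of each other inside each group, and the log2 change was -0.94 (SE 0.027). Mybpc3, the cardiac form, was listed at 0.29, 0.42 and 0.37 in the Noggin-deficient libraries, against 0.97 and 0.92 in the wild type libraries. The fast form Mybpc2 was listed at 0.19, 0.17 and 0.22 in the Noggin-deficient libraries, against 0.29 and 0.36 in the wild type libraries, and was not tested.

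Ttn, the gene of titin, had normalized values of 7.86, 8.12 and 8.10 in the Noggin-deficient libraries, against 15.4 and 15.7 in the wild type libraries. That is a log2 change of -0.93 (SE 0.035, adjusted p = 5.04e-07), with Noggin-deficient libraries at 51.6% of the wild type mean. The light chain genes parted in size. Myl3, the slow and ventricular essential light chain, had 30.5, 28.9 and 30.6 in the Noggin-deficient libraries, against 53.1 and 57.3 in the wild type libraries, a log2 change of -0.87 (SE 0.043). Myl1, the fast essential light chain, had 672, 683 and 646 in the Noggin-deficient libraries, against 799.9 and 825 in the wild type libraries. Its change, -0.28 (SE 0.039), was the smallest of the group. Both genes fell, and every Noggin-deficient library lay below both wild type libraries for each.

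Among the myosin heavy chains, the entry Myh8_copy2 carried the name of the perinatal gene Myh8. It had 212, 229 and 208 in the Noggin-deficient libraries, against 347.9 and 348.8 in the wild type libraries, a log2 change of -0.69 (SE 0.043). Myh8_copy3 was listed at 0.22 to 0.33 in Noggin-deficient and at 0.43 and 0.39 in wild type libraries. How reads were split between the copies is not given, so both values are uncertain. The adult fast genes Myh4 and Myh2 had log2 changes of -0.73 and -0.59, and Myh13, known from eye muscles, one of -0.59. The slow gene Myh7 changed by -0.41 and the alpha-cardiac gene Myh6 by -0.34, with wild type means of 51.6 and 7.1. In the RefSeq order of coding genes Myh2, Myh4, Myh8 and Myh13 lie in a row with 1 gene between Myh2 and Myh4, and Myh6 and Myh7 are direct neighbours. These genes are close paralogs, and shared reads may have been assigned to any of them. The M-band genes Myom2, Myom1 and Myom3, whose products link thick filaments at the middle of the sarcomere, changed by -0.57, -0.52 and -0.35. Mylk4, a further kinase of the myosin light chain kinase family, changed by -0.61.

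**Figure D2:**
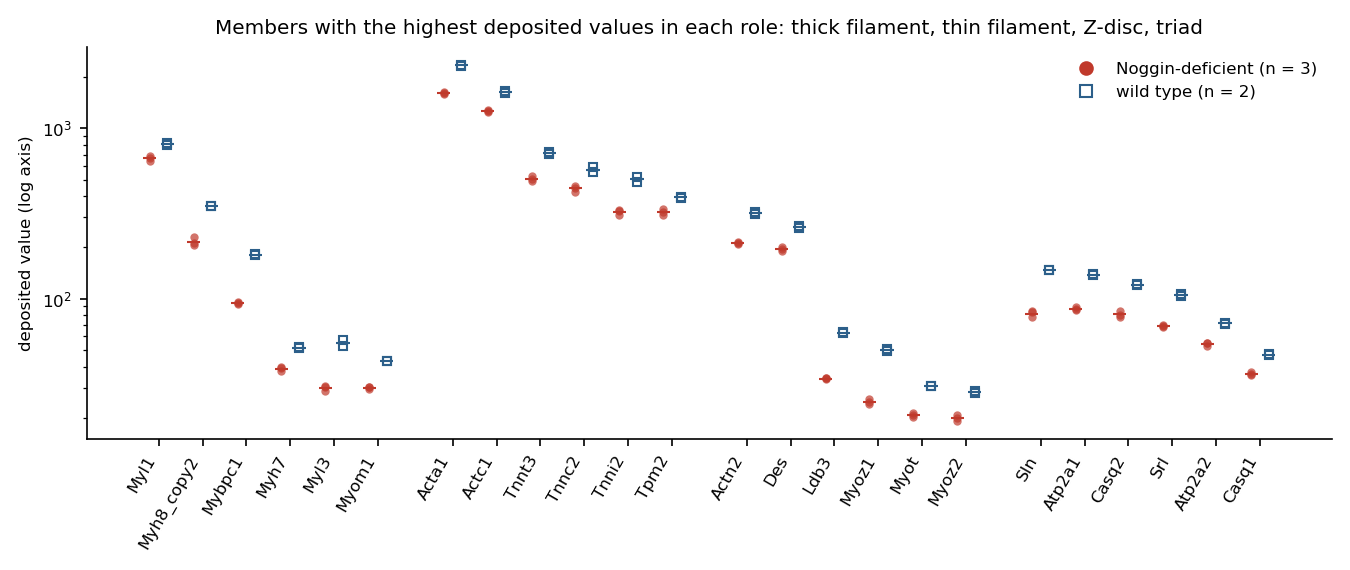
Deposited values on a log axis for the 6 members with the highest values in each striated role, with a point for each library and a bar at the group mean. For every gene drawn the 3 Noggin-deficient libraries (filled circles) lie below the 2 wild type libraries (open squares). Heights are not comparable between genes, because it is not given whether the unit is per transcript length.

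The thin filament group held 12 members, which all fell (median log2 change -0.54). The skeletal actin gene Acta1 had normalized values of 1611, 1629 and 1580.2 in the Noggin-deficient libraries, against 2335 and 2357 in the wild type libraries. Its log2 change was -0.55 (SE 0.042, adjusted p = 1.4e-05). Actc1, the cardiac actin that developing skeletal muscle also uses, had 1262, 1281 and 1251 in the Noggin-deficient libraries, against 1619 and 1658 in the wild type libraries, a change of -0.37 (SE 0.039). The 2 actin genes are close paralogs, so reads could be shared between them.

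Neb, the gene of nebulin, had normalized values of 14.96, 15.8 and 14.7 in the Noggin-deficient libraries, against 29.4 and 29.5 in the wild type libraries. Its log2 change of -0.95 (SE 0.037) was close to that of Ttn. Nebl, whose product nebulette is the shorter relative of heart muscle, had 0.65, 0.74 and 0.69 in the Noggin-deficient libraries, against 1.77 and 1.70 in the wild type libraries, and changed by -1.07 (SE 0.087). The fast troponin genes are the calcium switch of the filament. Tnni2, the inhibitory subunit, had 326, 331 and 311 in the Noggin-deficient libraries, against 485 and 519 in the wild type libraries, a log2 change of -0.64 (SE 0.043). Tnnt3, the tropomyosin-binding subunit, had 505, 524 and 492 in the Noggin-deficient libraries, against 702 and 721 in the wild type libraries, a change of -0.49 (SE 0.039). Tnnc2, the calcium-binding subunit, changed least of these, by -0.36 (SE 0.049). The tropomyosin genes Tpm1 and Tpm2 had the smallest changes of the group, -0.30 and -0.29, while the pointed-end genes Tmod4, Tmod1 and Lmod2 lay between -0.60 and -0.54.

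The Z-disc group held 13 members, which all fell. The median log2 change was -0.58, with a range from -1.34 to -0.31. Calsarcins are Z-disc proteins that bind alpha-actinin and calcineurin. Myoz1, the form of fast fibres, had normalized values of 24.8, 25.8 and 24.2 in the Noggin-deficient libraries, against 51.0 and 49.4 in the wild type libraries, a log2 change of -1.003 (SE 0.035). Myoz2, the slow and cardiac form, had 19.9, 20.8 and 19.2 in the Noggin-deficient libraries, against 27.8 and 28.7 in the wild type libraries, a change of -0.50 (SE 0.040). Myoz3 was listed at 0.37, 0.23 and 0.31 in the Noggin-deficient libraries, against 1.19 and 1.09 in the wild type libraries. Its change of -1.34 (SE 0.13) rests on low values, under the minimum of 0.5 in every Noggin-deficient library, and was -0.72 with a pseudocount of 1.

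Pdlim5, a PDZ and LIM domain adaptor of the Z-disc, had normalized values of 8.44, 8.57 and 8.55 in the Noggin-deficient libraries, against 17.5 and 17.3 in the wild type libraries, a log2 change of -1.01 (SE 0.032). Ldb3, of the same protein family, had 34.1, 34.0 and 33.7 in the Noggin-deficient libraries, against 63.6 and 62.9 in the wild type libraries, a change of -0.89. Pdlim3, also of that family, changed by -0.31. Actn2, the alpha-actinin that crosslinks actin in the Z-disc, had 209.6, 216 and 212 in the Noggin-deficient libraries, against 321 and 316 in the wild type libraries, a change of -0.58 (SE 0.029). Des, the intermediate filament desmin around the Z-disc, had 195, 201 and 191 in the Noggin-deficient libraries, against 266 and 259.7 in the wild type libraries, a change of -0.43 (SE 0.032). The actin-binding repeat genes Xirp2 and Xirp1 changed by -0.70 and -0.68, Myot, of myotilin, by -0.56, Synpo2 by -0.49 and the muscle protease gene Capn3 by -0.45.

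The triad and calcium store group held 16 members, which all fell (median log2 change -0.54). Cacng1, the gamma subunit of the skeletal voltage sensor, had normalized values of 18.8, 19.8 and 19.8 in the Noggin-deficient libraries, against 36.6 and 35.3 in the wild type libraries. Its log2 change was -0.88 (SE 0.035, adjusted p = 6.4e-07). The beta subunit gene Cacnb1 changed by -0.40 and the alpha2delta gene Cacna2d1 by -0.58. Ryr1, the release channel, had 11.9, 12.3 and 11.8 in the Noggin-deficient libraries, against 17.6 and 16.7 in the wild type libraries, a change of -0.50 (SE 0.038). Ryr3, a form present in developing muscle, had 1.02, 0.92 and 0.83 in the Noggin-deficient libraries, against 1.61 and 1.56 in the wild type libraries, a change of -0.65 (SE 0.095).

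Atp2a1, the SERCA pump of fast fibres, had normalized values of 86.1, 86.9 and 89.7 in the Noggin-deficient libraries, against 139 and 137 in the wild type libraries, a log2 change of -0.66 (SE 0.029). Atp2a2, the pump of slow fibres and heart that other cells also express, had 54.7, 52.9 and 54.8 in the Noggin-deficient libraries, against 72.0 and 71.1 in the wild type libraries, a change of -0.40 (SE 0.028). Sln, whose small product sarcolipin inhibits the pump, had 83.3, 77.7 and 84.3 in the Noggin-deficient libraries, against 148 and 147 in the wild type libraries, a change of -0.85 (SE 0.039). The estimate for Sln lay below those for both pump genes, and the difference between genes was not tested. Of the calsequestrins, Casq2 had 84.3, 78.5 and 79.9 in the Noggin-deficient libraries, against 120.6 and 121.6 in the wild type libraries, and Casq1 had 35.8, 36.9 and 35.9 in the Noggin-deficient libraries, against 46.6 and 47.4 in the wild type libraries. Their log2 changes were -0.58 and -0.37. Among the proteins that hold the junction together, Jph1 changed by -0.62, Trdn by -0.39, Jsrp1 by -0.29 and Asph by -0.27, the last being the smallest change among the striated members. The store proteins of Srl and Hrc changed by -0.60 and -0.34.

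Ratios of paired isoforms inside a library do not change with the scaling of that library. Of 8 pairs with values, 7 had ratios that did not overlap between the groups. With 3 libraries against 2 the exact permutation test cannot go below a two-sided p = 0.2, and each of these 7 pairs gave that value (Benjamini-Hochberg adjusted p = 0.23 over the 8). The Myl3 to Myl1 ratio was 0.0453, 0.0422 and 0.0474 in the Noggin-deficient libraries, against 0.0663 and 0.0695 in the wild type libraries, a difference of -0.60 in log2 ratio. The Myoz2 to Myoz1 ratio was 0.803, 0.806 and 0.792 in the Noggin-deficient libraries, against 0.545 and 0.58 in the wild type libraries, a difference of 0.51. In these Noggin-deficient libraries the slow partner was thus relatively lower in the light chains and relatively higher in the calsarcins.

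The Atp2a2 to Atp2a1 ratio was 0.636, 0.609 and 0.611 in the Noggin-deficient libraries, against 0.518 and 0.519 in the wild type libraries, a difference of 0.25. The pump isoform shared with the heart was relatively higher in the Noggin-deficient libraries. For calsequestrin the cardiac Casq2 was relatively lower, by -0.21 in log2 ratio to Casq1. The difference for Ryr3 to Ryr1 was -0.27, and turned to 0.05 with a pseudocount of 1. That for Myom2 to Myom1 was -0.06. A trend on transcript length, unlike a scaling, can alter a ratio. With it taken out, an alternative added after seeing the data, the difference was -0.04 for Casq2 to Casq1, 0.45 for Atp2a2 to Atp2a1, 0.70 for Myoz2 to Myoz1, -0.58 for Myl3 to Myl1, -0.14 for Ryr3 to Ryr1 and -0.09 for Myom2 to Myom1. The Mybpc1 to Mybpc2 ratio overlapped between the groups (difference -0.20, exact permutation p = 0.4). It rests on low values of Mybpc2, and the difference was -0.41 with a pseudocount of 0.1 and -0.79 with 1. The absolute size of a ratio depends on whether the unit is per length, and the difference between groups does not.

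**Figure D3:**
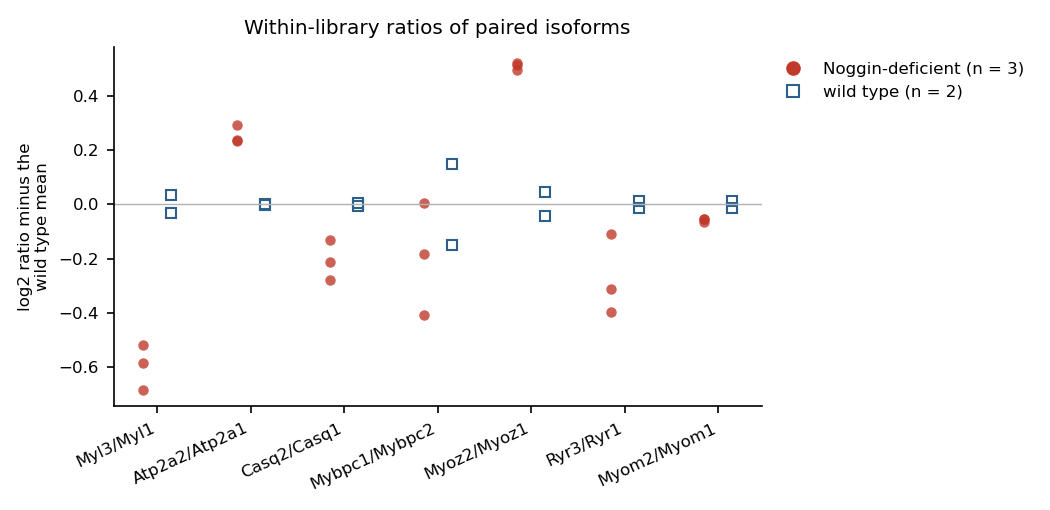
Log2 ratio of 2 isoforms in every library, minus the wild type mean of that ratio, for 7 pairs. The Noggin-deficient libraries (filled circles) lie above wild type (open squares) for Atp2a2/Atp2a1 and Myoz2/Myoz1 and below it for Myl3/Myl1, Casq2/Casq1, Ryr3/Ryr1 and Myom2/Myom1, while Mybpc1/Mybpc2 overlaps.

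The smooth muscle and non-muscle relatives held 4 members, Pdlim2, Tmod2, Myh14 and Pdlim1, which all fell (median log2 change -0.58). Pdlim2, an actin-associated adaptor, had normalized values of 2.94, 2.71 and 2.73 in the Noggin-deficient libraries, against 4.70 and 4.98 in the wild type libraries, a log2 change of -0.74 (SE 0.060). Tmod2, a tropomodulin known from neurons, had 2.51, 2.56 and 2.58 in the Noggin-deficient libraries, against 4.09 and 4.13 in the wild type libraries, a change of -0.64 (SE 0.053). Myh14, a non-muscle myosin also found in epithelia, had 1.08, 1.33 and 1.26 in the Noggin-deficient libraries, against 1.84 and 1.86 in the wild type libraries, a change of -0.52 (SE 0.094). Pdlim1 had 10.9, 10.3 and 10.2 in the Noggin-deficient libraries, against 14.1 and 14 in the wild type libraries, a change of -0.41 (SE 0.040). The summed values of 10 epidermal markers, which all fell, were 1126 to 1166 in the Noggin-deficient libraries, against 2685 and 2717 in the wild type libraries. Of 9 smooth muscle and pericyte markers 3 had values, with sums of 38.2 to 40.3 in the Noggin-deficient libraries, against 35.9 and 36.9 in the wild type libraries. Of these Tagln rose (log2 change 0.36), while Cnn1 (-0.80) and Cspg4 (-0.24) fell. The part of these cells in the result was not tested.

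The channels and stores of other tissues held 9 members, and 8 of them were higher in the Noggin-deficient samples. The 3 tested ones rose. Cacng4, an auxiliary subunit that also accompanies glutamate receptors, had normalized values of 7.25, 6.6 and 5.95 in the Noggin-deficient libraries, against 4.78 and 5.36 in the wild type libraries, a log2 change of 0.36 (SE 0.085, adjusted p = 0.0041). Cacna1a, the pore of a channel of nerve endings, had 0.80, 0.92 and 0.84 in the Noggin-deficient libraries, against 0.57 and 0.62 in the wild type libraries, a change of 0.38 (SE 0.097, adjusted p = 0.0057). Jph4, a junctophilin of neurons, had 1.25, 1.29 and 1.28 in the Noggin-deficient libraries, against 0.91 and 1.04 in the wild type libraries, a change of 0.32 (SE 0.085, adjusted p = 0.0078). Without wild type replicate 1 the change of Jph4 was 0.24 (adjusted p = 0.065). The 6 others were listed at 0.36 or less in every library. Cacng3 was at 0.29 to 0.36 in the Noggin-deficient libraries and at 0 and 0.01 in the wild type libraries, and Cacng2 at 0.03 to 0.07 in the Noggin-deficient libraries and at 0 in both wild type libraries. Cacna1i was the exception, at 0.16 to 0.19 in the Noggin-deficient libraries and at 0.27 and 0.23 in the wild type libraries.

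All 10 markers on a neuron list rose as well, with summed values of 29.4 to 29.8 in the Noggin-deficient libraries, against 7.15 and 7.28 in the wild type libraries. Elavl3 was at 0 in a wild type library, and the part of neurons in the rise of these channels was not tested. In the RefSeq gene order Cacng1, Cacng4 and Cacng5 are direct neighbours. Cacng1 fell by 0.88 on the log2 scale, while Cacng4 rose by 0.36.

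Transcript length moved with the changes across the listed genes. Spearman's correlation of length with the log2 change was -0.27 over 3752 tested genes with a length, and -0.17 over the 58 striated members, over genes that are not independent. Among listed genes other than the members, 31.1% were lower in the shortest eighth of lengths, up to 1396 bases, and 93.7% in the longest, from 7251 bases. Among the striated members all 10 in the shortest eighth and all 9 in the longest were lower, with medians of -0.62 and -0.65. The short transcripts of Myl3, Sln, Myoz1, Cacng1 and Tnni2 thus fell where most listed genes of that length rose. For long transcripts the direction was the usual one. After a smooth trend on length was removed from every library, the median of the thin filament group was -0.69 and that of the Z-disc group -0.49. The thick filament group then stood at -0.28 and the triad group at -0.33. Ttn and Neb still fell, by 0.46 and 0.48 on the log2 scale. Myh6 and Asph turned to 0.01 and 0.09 (adjusted p = 0.87 and 0.11). Ryr1 and Ryr3 (-0.06 and -0.21) were no longer called, and neither were Myh7, Myom3, Synpo2, Trdn and Myh14.

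**Figure D4:**
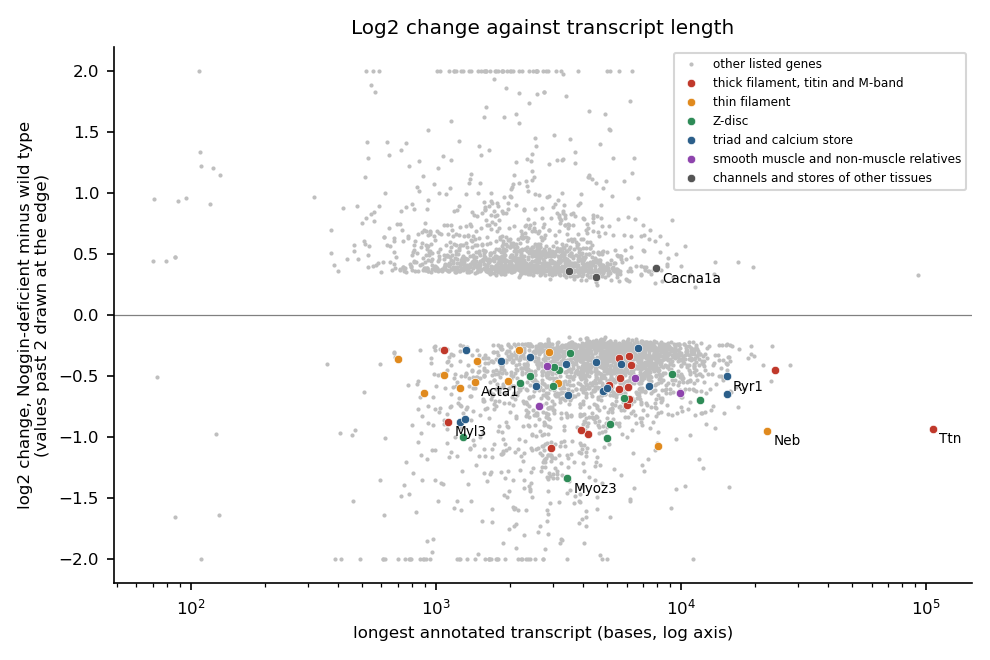
Log2 change (Noggin-deficient minus wild type, vertical axis) against the longest annotated transcript in bases (log axis) for tested listed genes, with members coloured by role and changes beyond 2 drawn at the edge. Striated members lie below 0 at every length, and the empty band around 0 shows the selection of the listed genes.

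Scaling moved all changes together. Scaling by median of ratios shifted the median change of all genes by 0.26, upper-quartile factors by 0.19 and equal sums by 0.12. The tested members' median was then -0.29, -0.36 and -0.43, beside -0.03, -0.09 and -0.16 for all listed genes. Under median-of-ratios scaling all 62 members that had fallen kept a negative change, 51 of them called. The 11 that lost the call were Actc1, Myl1, Tpm1, Tpm2, Tnnc2, Hrc, Jsrp1, Asph, Trdn, Myh6 and Pdlim3, with changes from -0.12 to -0.01. Of all calls 54.5% were then higher, against 38.7% as deposited, and 49.4% after the length trend was removed. The choice among these scalings cannot be settled from genes already selected for a difference.

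**Figure D5:**
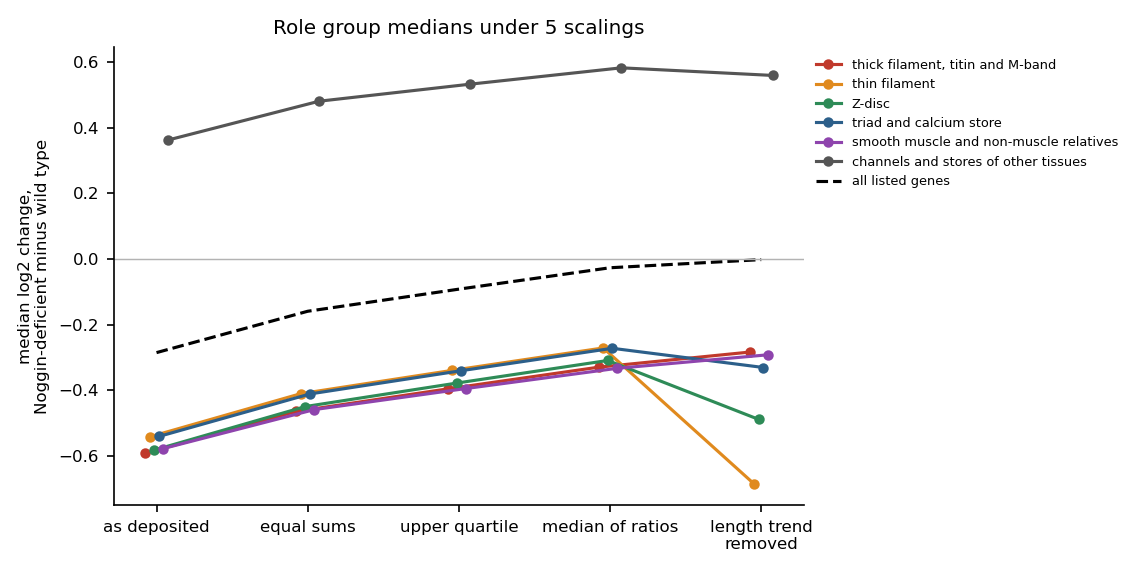
Median log2 change (Noggin-deficient minus wild type) of each role group and of all listed genes (dashed line) for the values as deposited and under 4 other treatments; points are shifted sideways a little so that lines do not hide each other. The 4 striated groups and the non-muscle relatives stay below the dashed line throughout, and the channels of other tissues (3 tested) stay above 0.

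Muscle genes outside the chosen families were read from lists of the same kind. Of 26 genes of the dystrophin complex and the muscle membrane 20 were tested and all fell, with a median log2 change of -0.45. Those with the smallest p were Anxa1, an annexin of many cell types (-1.29), Sntb1, a syntrophin (-0.95), and Dag1, of dystroglycan (-0.44). Of 28 further genes of the triad, T-tubule and excitability 11 were tested and all fell (median -0.41), led by Sypl2, of the triad protein mitsugumin 29 (-1.12), Camk2b, a calcium-dependent kinase (-0.91), and Tmem38a, of a potassium channel of the store membrane (-0.41). Of 47 other genes of the Z-disc, of sarcomere assembly and of turnover 25 were tested, 23 fell and 2 rose (median -0.60). Fhl1, a LIM protein of the sarcomere, changed by -1.11, Klhl31, a muscle kelch protein, by -0.82 and Hspb8, a small chaperone, by -0.60. Of 27 genes of muscle energy metabolism 15 were tested, 14 fell and 1 rose (median -0.58), led by Ckm, the creatine kinase (-1.08), Pygm, the glycogen phosphorylase (-0.97), and Ampd1, the muscle AMP deaminase (-0.92). The background share of falls over all tested genes is 60.1%, as given above.

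Of 12 skeletal muscle fibre markers 7 had values under their own symbol, 4 of them members. Myh8 was on that list too, but the entries Myh8_copy2 and Myh8_copy3 were not counted for it. The sums of the 7 were 2565 to 2676 in the Noggin-deficient libraries, against 3902 and 3976 in the wild type libraries. Members make up most of these sums, which largely repeat values given above. Acta1 alone had 1580.2 to 1629 in the Noggin-deficient libraries, against 2335 and 2357 in the wild type libraries. Of the 7 markers 6 fell and 1 rose, Mb. Those that are not members were Ckm (log2 change -1.08), Myf6 (-0.92) and Mb (0.48). Acta1, Tnnt3, Tnni2, Ttn, Ckm and Myf6 were present in every library, and Myod1 and Myog were not analysed here. Markers of other cells moved with the genotype in both directions. Of 8 fibroblast markers 5 had values and fell, with sums of 5503 to 5530.1 in the Noggin-deficient libraries, against 7189 and 7294 in the wild type libraries. Of 6 Schwann cell markers 4 had values and fell, with sums of 28.4 to 29.8 in the Noggin-deficient libraries, against 40.5 and 41.2 in the wild type libraries. The tested liver markers (8) and erythroid markers (3) rose. Sums over the 9 liver markers with values were 112 in the Noggin-deficient libraries, against 8.82 to 9.03 in the wild type libraries. Sums over the 3 erythroid markers were 217 to 223 in the Noggin-deficient libraries, against 92.7 to 97.4 in the wild type libraries. Of 8 cardiac markers Myh6 and Tbx5 had values, with sums of 13.7 to 15.01 in the Noggin-deficient libraries, against 13.0 and 13.4 in the wild type libraries. Tbx5 rose (log2 change 0.51) and Myh6 fell (-0.34). The part of these tissues in the fall of the listed contractile genes was not tested.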

How the data were processed

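RNA from 3 Noggin-deficient and 2 wild type forelimb muscle samples was sequenced, and the genotype given for each sample set its group. A stranded mRNA kit (KAPA) with 11 PCR cycles was used, per the labels' protocols. Per the submitters' processing notes, STAR 2.4.2a, DESeq2 and mm9 were involved, in roles that are not stated. Expression is a deposited signal that is never negative, and how the authors normalized it is not stated in labels or headers. The values are not counts, so depth is unknown and no counting interval is given. Testing used limma 3.58.1 (intensity trend, R 4.3.3) on the log2 signal after adding 0.25, as Noggin-deficient minus wild type. It covered the 3913 genes that reached 0.5 in 2 or more libraries, and p-values were adjusted over all of them. Fold changes on that scale understate the change of low genes. The test was tried on simulated data in which, unlike here, most genes did not differ. Members, role groups and lists were chosen with earlier results of these data known, and the roles of the Myh8 copies were added after values were seen. Genes named with values in every library were, in each role, the 3 with the highest values, the 3 with the largest changes, any called against its group, and both genes of each isoform pair. Other named members, Ttn among them, were chosen after their values were seen. The values of 1 member and of 1 isoform pair are not reported here, though counts and medians include them. Marker lists covered skeletal muscle fibre, smooth muscle, cardiac muscle, neuron, Schwann cell, epidermis, fibroblast, erythroid and liver genes. Alternatives were other scalings, pseudocounts and filters, a 1.5-fold threshold, removal of a length trend, a replicate block and leaving out each library. Transcript length was the longest GENCODE M21 transcript. Promoter windows are RefSeq's on GRCm38.p6, matched by symbol.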

Additional observations from a re-analysis of the deposited data

How the results depend on the processing

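As deposited, 62 of the 65 tested members were lower and 3 higher, and their median log2 change was -0.56. The replicate numbers of the labels are not said to mark a shared litter or day. The correlation of deviations between same-numbered libraries was -0.13 and -0.06. With them as a replicate block, the members' median was -0.55, and the 62 and 3 calls did not change in number. Leaving out each library in turn gave medians from -0.57 to -0.54, with 60 to 62 members lower and 2 to 3 higher. Without a wild type library 63 members were tested, and the lone library was assumed to vary like the others. The members' median was -0.52 with a pseudocount of 1 and also -0.52 with no filter on low values, where 8 members were higher. With a minimum of 2, 1 member was higher. The median was -0.43 with equal sums and -0.36 under upper-quartile scaling. It was -0.29 with median-of-ratios factors, where 1257 genes were called lower, and -0.38 once the trend on length was taken out, where 1365 were, against 2352 as deposited. Against a 1.5-fold change, 165 genes were higher and 404 lower, with 0 higher and 13 lower members. With the length trend taken out, Asph and Myh6 changed by 0.0883 and 0.0108 on the log2 scale, against negative changes as deposited. With a pseudocount of 1, the log2 ratio difference of Ryr3 to Ryr1 was 0.0505. The cause was not tested. Count models were not run, as the files hold no counts. Depth is unknown, which limits statements on members listed near 0.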
